A study of Rattus norvegicus with 6 samples.

Results

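The genes described here encode the proteins of the cytosolic ribosome and of the mitochondrial ribosome. They were taken from the count table by name, as rows annotated protein coding whose symbol is Rpl or Rps with a number, Rplp0, Rplp1, Rplp2, Rpsa, or Mrpl or Mrps with a number. The rule took 177 of 43035 features and used no measured value. Of these, 102 genes (90 symbols) belong to the cytosolic ribosome, 64 to its large and 38 to its small subunit, and 75 belong to the mitochondrial ribosome, 45 to its large and 30 to its small subunit. RNA-seq was performed on primary cardiomyocytes from the hearts of Sprague-Dawley rats of postnatal day 1, transfected with a scramble siRNA (si-NC, 3 libraries) or with an siRNA against DYRK1A, a protein kinase (si-DYRK1A, 3 libraries), and kept in culture for 48 h. All 6 libraries share the strain, the age, the medium with fetal bovine serum and the transfection, and the submitters call the 3 of each group biological replicates. The study's methods give a pre-plating step, in which cells that attach early are left behind and the cells still in suspension are cultured, and name no cell sorting. Markers of other cell types were detected (below).

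A ribosome joins ribosomal RNA and proteins into a small subunit, which reads the mRNA, and a large subunit, which forms the peptide bonds. The cytosolic ribosome translates nuclear mRNAs, and its protein genes are among the most strongly expressed of any cell and have left many processed copies in mammalian genomes. Their mRNAs are known for a tract of pyrimidines at the very start, a C followed by more C and T, through which growth signals of the mTORC1 pathway act mainly on translation. The mitochondrial ribosome is built from mitochondrial rRNA and from proteins imported from the cytosol, and it makes the few subunits of the respiratory chain that the mitochondrial genome encodes. Heart muscle depends on that chain for its ATP.

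To show the start-site tract for which cytosolic ribosomal protein genes are known, 30 bases around the start of transcription are printed for some of the members named below. These are 10 before and 20 from the start onward, 5′ to 3′ on the gene's strand, as RefSeq gives them for the rat build GRCr8. Capitals mark an unbroken run of C and T that begins with a C at the annotated start and has at least 4 more pyrimidines. Lines with no capitals have no such run there. The run is more frequent among the cytosolic lines printed than among all cytosolic genes matched (below). Rpl11 and Rpl21, described below, have no such run at their RefSeq start and are not printed.
Rpl19 (chr10:83519054-83519083, plus strand): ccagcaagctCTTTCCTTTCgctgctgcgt
Rpl31 (chr9:49143101-49143130, plus strand): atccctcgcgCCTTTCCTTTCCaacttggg
Rpl35 (chr3:43165902-43165931, minus strand): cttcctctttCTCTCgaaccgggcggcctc
Rplp0 (chr12:46718371-46718400, minus strand): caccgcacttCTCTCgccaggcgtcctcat
Rps27l (chr8:76443648-76443677, plus strand): ttcatttgtcattatttgtggtgtccagag
Mrpl12 (chr10:106256736-106256765, plus strand): agacaaaggcatgccgcggagggctgcagg
Mrpl22 (chr10:42845900-42845929, plus strand): cggcgtttgaactccgaggcttccgtaggg
Of the 165 symbols, 124 were matched to a single start, 67 cytosolic and 57 mitochondrial. The run stood at the start of 23 of 67 cytosolic genes (34.3%), of 2 of 57 mitochondrial genes (3.51%) and of 881 of all 33469 promoters (2.63%). The fixed motif CTTTCC, searched within 25 bases on either side of the start and partly overlapping the run, was found on the gene's strand in 18 cytosolic genes (26.9%), in 1 mitochondrial gene (1.75%) and in 2.19% of all promoters. On the other strand it was found in 1.49%, 3.51% and 2.24%. A start annotated a few bases off hides the run, and a match is a description of letters only.

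**Figure D1:**
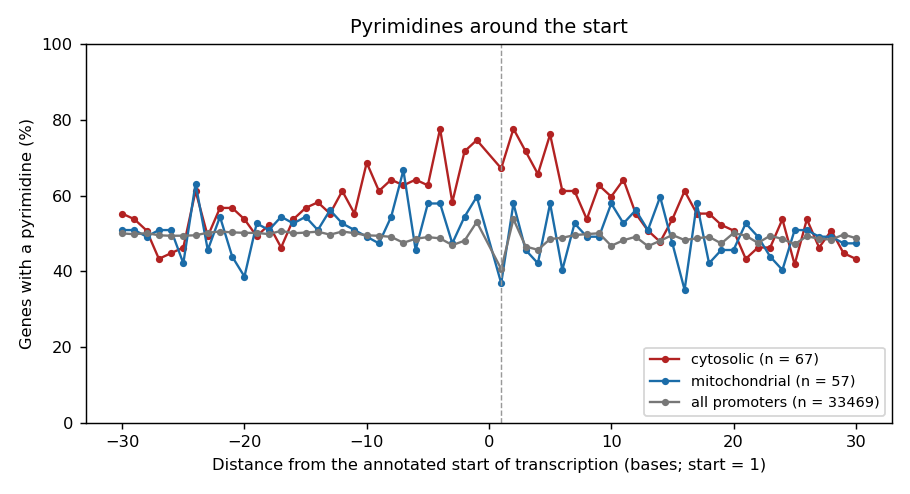
Share of genes (%) with a C or T at each base from 30 before to 30 after the annotated start (start = 1), for 67 cytosolic and 57 mitochondrial ribosomal protein genes and all 33469 promoters. The cytosolic curve stands above both others within about 10 bases of the start, except at base -7 (62.7%, with 66.7% for mitochondrial genes). The mitochondrial curve scatters around that of all promoters, from 35.1% at base 16 to 66.7% at base -7.

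The libraries held 10325074 to 11921772 counts (si-NC) and 10703229 to 11723974 counts (si-DYRK1A). The targeted gene did not check the labels: annotated Dyrk1a held 0 to 3 counts per library, and an unannotated transcript that spans it had 74.5 to 80.9 CPM (counts scaled to the size of the library, after TMM normalization) in si-NC and 80.1 to 85.4 CPM in si-DYRK1A, with a log2 fold change of 0.08 and an adjusted p = 0.374 in edgeR. Directions below are therefore those of the libraries labelled si-DYRK1A relative to si-NC. Of 13 cardiomyocyte markers, 12 were matched, 6 were tested and 4 rose, among them Nppa, Actn2 and Actc1, with a summed level of 21241 to 22192 CPM in si-NC and 24389 to 25378 CPM in si-DYRK1A, while Myh6, Myh7, Tnni3, Myl2 and Mybpc3 were at 0 in every library. Of 8 endothelial markers tested, Tek, Tie1 and Cdh5 fell and none rose, and the summed level went from 189 to 209 CPM in si-NC to 159 to 166 CPM in si-DYRK1A. Summed fibroblast markers spanned 22107 to 26829 CPM in si-NC and 20917 to 21674 CPM in si-DYRK1A, with 2 of 7 tested (Lum and Postn) higher and Ddr2 and Pdgfra at 0. Of 8 macrophage markers tested, 2 rose (258 to 274 CPM summed, then 266 to 312 CPM), and of 4 smooth muscle and pericyte markers 1, Des, fell (2834 to 3079 CPM, then 2660 to 2796 CPM), with Myh11 and Acta2 at 0. The 1 erythroid marker tested was not called (summed level 4.70 to 5.67 CPM, then 6.22 to 7.04 CPM). Across all features tested, 8.03% were called higher and 7.19% lower. Without overlap, si-DYRK1A lay below si-NC in 1 of 6 cardiomyocyte, 2 of 7 fibroblast and 3 of 8 endothelial markers. It also lay below in 1 of 8 macrophage and 1 of 4 smooth muscle and pericyte markers. It lay above in 3 of 6 cardiomyocyte, 4 of 7 fibroblast, 1 of 8 endothelial and 2 of 8 macrophage markers. In the 1 erythroid marker tested it lay above as well. For all features these shares were 15.3% below and 16.2% above. The part of cell makeup in the results below was not tested, and in bulk samples fewer cells of a type and less RNA per cell cannot be told apart.

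Many members could not be measured in this table. In all, 47 members were at 0 in every library and 69 were under 10 counts in every library, 43 cytosolic and 26 mitochondrial. These included genes that every cell needs: Rplp0, Rplp1 and Rplp2, the proteins of the stalk that recruits elongation factors, were at 0 in all 6 libraries, as were Rpl10, Rpl22, Rpl22l1, Rpl7l1 and Rps27. They are listed at 0, and no level of the mRNA is read from that. Of the 75 members covered over at least 50% of their length by an unannotated transcript on the same strand, 60 were under 10 counts in every library, against 9 of the 102 members not so covered. The covering transcripts themselves held few counts, with a median of 3.58 per library over these 60, and 7 of the 60 had a transcript with a mean of at least 100. The clearest was Rpl7l1, a paralogue of Rpl7, at 0 itself while the transcript across it held 1698 to 1915 counts per library and also spanned another annotated gene.

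The other large-subunit members under 10 counts were Rpl10a, Rpl12, 1 of 2 genes named Rpl13a, Rpl15, Rpl18, Rpl22l2, Rpl23, Rpl23a, Rpl24, Rpl26, Rpl28, both genes named Rpl30l1, Rpl31l3, 1 of 2 genes named Rpl32, Rpl37a, a second gene named Rpl39, Rpl41, Rpl5 and both genes named Rpl7a. The small-subunit members included Rps10, Rps15, Rps18l1, Rps19, Rps19l1, both genes named Rps2, Rps20, Rps21, Rps25 and both genes named Rps6. On the mitochondrial side they were Mrpl1, Mrpl4, Mrpl13, Mrpl16, Mrpl17, Mrpl19, Mrpl21, Mrpl27, Mrpl36, Mrpl42, Mrpl43, Mrpl48, Mrpl52, Mrpl53, Mrpl55, Mrps2, Mrps6, Mrps7, Mrps10, Mrps11, Mrps12, Mrps21l, Mrps23, Mrps28, Mrps30 and Mrps35. Rpl27 and Rpl36a reached 10 and 11 counts but were not tested either. This left 106 members for the test, 57 cytosolic and 49 mitochondrial.

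Per length, the tested cytosolic genes stood well above the mitochondrial ones. On the FPKM scale of the authors, averaged over the 6 libraries, the median was 669 for cytosolic and 52.8 for mitochondrial genes, against 4.14 for all 15513 features tested. The cytosolic levels were also far more uneven, with quartiles at 29.0 and 2007 FPKM, whereas the mitochondrial quartiles lay at 30.9 and 89.3 FPKM. The proteins of either ribosome are assembled in equal numbers as a rule, and why the listed cytosolic levels span so wide a range was not tested. Tested cytosolic members under a covering transcript had a median of 2.48 FPKM (8 genes), and those not covered 983 FPKM (49 genes). For mitochondrial members the medians were 1.62 FPKM (5 genes) and 62.6 FPKM (44 genes). Low values listed here are therefore not read as levels of the mRNA. Among cytosolic genes the highest FPKM belonged to Rps29 (5732 ± 502, SD, n = 6), a small zinc-binding protein of the small subunit, and then Rpl36 (3429 ± 391). Rpl35, which lies by the exit tunnel (3200 ± 179), and Rps23, part of the decoding centre (3158 ± 132), came next among the genes named here. None of these last 3 passed the test. Their log2 fold changes were 0.17 ± 0.12 (SE) for Rpl36, 0.10 ± 0.05 for Rpl35 and 0.05 ± 0.04 for Rps23, with adjusted p = 0.459, 0.188 and 0.507 in edgeR. Within each mitochondrial subunit the highest levels were those of Mrpl54 (203 ± 17.8 FPKM) and Mrpl23 (186 ± 10.4 FPKM) in the large one and of Mrps25 (119 ± 3.72 FPKM) and Mrps33 (105 ± 6.57 FPKM) in the small one. These had log2 fold changes of 0.10 ± 0.08, 0.12 ± 0.05, -0.03 ± 0.05 and 0.14 ± 0.06, and none passed the test (adjusted p = 0.501, 0.146, 0.754 and 0.179 in edgeR).

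As a share of all counts, the cytosolic members took 4.05%, 3.83% and 4.27% in si-NC and 4.17%, 4.24% and 4.12% in si-DYRK1A. All 3 si-DYRK1A values lay within the range of si-NC, and the means were 4.05 ± 0.219% and 4.18 ± 0.0579% (SD, n = 3). The mitochondrial members took 0.320%, 0.313% and 0.324% in si-NC and 0.332%, 0.337% and 0.337% in si-DYRK1A. Here the groups did not overlap, with means of 0.319 ± 0.00572% and 0.335 ± 0.00296%. These sums are dominated by the most abundant genes and carry no test. The ratio of cytosolic to mitochondrial counts was 12.6, 12.2 and 13.2 in si-NC and 12.6, 12.6 and 12.2 in si-DYRK1A, so the groups overlapped.

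**Figure D2:**
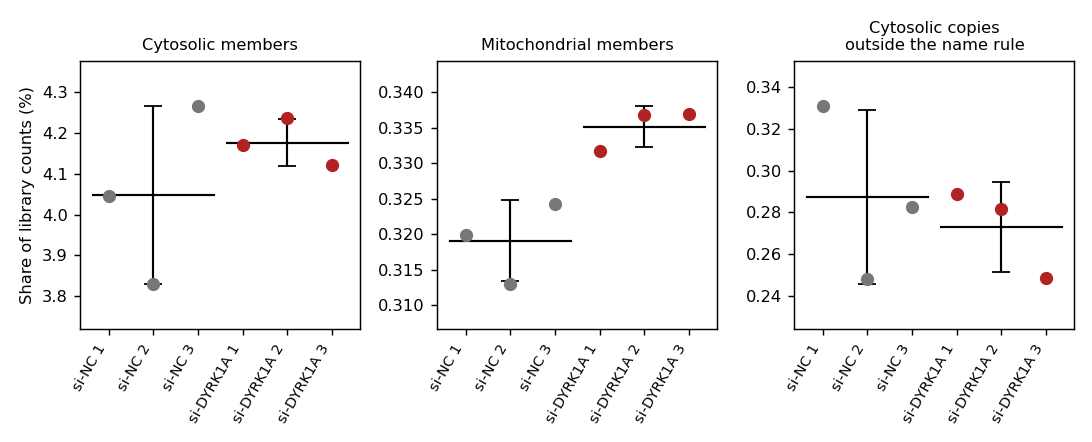
Summed counts as a percent of each library for 102 cytosolic members, 75 mitochondrial members and 198 annotated copies of cytosolic genes outside the name rule. Points are libraries, lines are group means and bars are SD (n = 3), and the axes do not begin at 0. Only the mitochondrial panel has groups that do not overlap, and si-NC 1 is the highest library for the copies.

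To ask whether the mRNAs of the cytosolic ribosome differed between the groups, each gene was tested with edgeR over the whole table. Of 57 cytosolic genes tested, 6 rose (Rpl21, Rpl19, Rpl11, Rps27l and Rps29 among them) and 1 fell (Rpl31). That is 10.5% higher, beside 8.03% of all features tested, and 1.75% lower, beside 7.19%. The share called higher is thus near the background. The median log2 fold change was 0.06, against 0.00 for all features, 39 of 57 values were above 0, and 47 of 57 were under 0.25 in size, where 63.0% of all features were. Many of all features are weakly expressed, so the comparison was also made among those averaging at least 4 on the log2 CPM scale, a limit chosen with the results known. There 5 of 45 cytosolic genes rose (11.1%) and 1 fell (2.22%), beside 13.0% and 12.1% of the 6733 features so selected, and 88.9% were under 0.25 in size, beside 80.4%. The share called higher thus lies above the share of all features and below that of the abundant ones. DESeq2 called 5 cytosolic genes higher and 0 lower, beside 6.81% and 6.22% of the features to which it gave an adjusted p. In edgeR, large and small subunits gave medians of 0.08 (34 tested, 4 higher, 1 lower) and 0.05 (23 tested, 2 higher, none lower). The 95% interval of the log2 fold change lay wholly within ±0.25 for 19 of the 57 genes and within ±0.5 for 35, and in the others the interval reached further. Groups did not overlap, with si-DYRK1A higher, in 7 of 57 genes (12.3%), beside 16.2% of all features, and with si-DYRK1A lower in 4 (7.02%), beside 15.3%. Among features averaging at least 4 on the log2 CPM scale, 6 of 45 cytosolic genes were higher without overlap (13.3%), beside 21.4%. There 3 (6.67%) were lower without overlap, beside 20.3%.

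**Figure D3:**
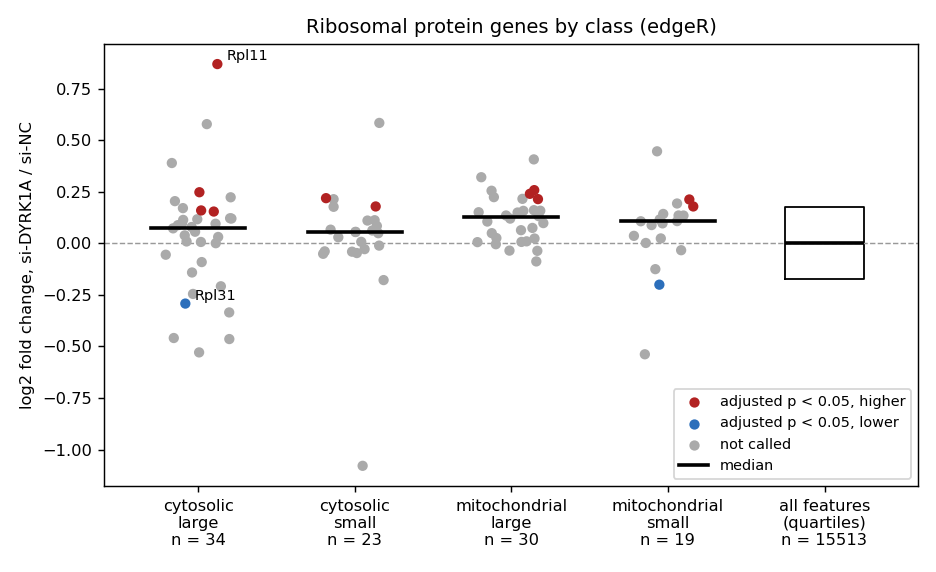
Log2 fold change of si-DYRK1A over si-NC in edgeR for each tested member, in 4 classes, with the median as a bar and the quartiles of all 15513 features tested as a box. Most points lie within 0.25 of 0, the medians of both mitochondrial classes (0.13 and 0.11) stand above those of the cytosolic classes (0.08 and 0.05), and the lowest point is the Rps27a gene on chromosome 5.

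Rpl21, a large-subunit protein, has 4 genes among the members, and the one on chromosome 13 (ENSRNOG00000029410) had the smallest p of all cytosolic genes. RefSeq places the start of Rpl21 on chromosome 12. The gene on chromosome 13 spans only its listed length of 483 bases, without an intron, as in a processed copy. Whether it is one was not tested. The gene on chromosome 13 is meant in what follows. It had 443, 427 and 443 CPM in si-NC and 550, 496 and 513 CPM in si-DYRK1A. Every si-DYRK1A library was above every si-NC library, and the log2 fold change was 0.25 ± 0.04 (adjusted p = 0.000503 in edgeR). It was called with any of the 6 libraries left out. None of its other loci was called.

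Rps27l, a small-subunit paralogue of Rps27 known as a target of p53, had 345, 312 and 374 CPM in si-NC and 418, 392 and 389 CPM in si-DYRK1A. The groups did not overlap, and it rose by 0.22 ± 0.06 on the log2 scale (adjusted p = 0.0148 in edgeR). Rps29, the most abundant member per length, had 1571, 1676 and 1713 CPM in si-NC and 1955, 1948 and 1710 CPM in si-DYRK1A. Replicate 3 of si-DYRK1A lay within the si-NC range, although the gene was called at 0.18 ± 0.05 (adjusted p = 0.0233 in edgeR).

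Rpl19, whose start carries the run of pyrimidines printed above, had 1410, 1316 and 1511 CPM in si-NC and 1520, 1571 and 1624 CPM in si-DYRK1A, at 0.15 ± 0.05 (adjusted p = 0.0289 in edgeR). The highest si-NC library lay just under the lowest si-DYRK1A library.

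The largest change on the log2 scale among called cytosolic genes, 0.87 ± 0.28 (adjusted p = 0.0381 in edgeR), was that of Rpl11, which together with Rpl5 binds Mdm2 when ribosome assembly fails. Its counts were very low, with 15, 25 and 45 in si-NC and 49, 52 and 50 in si-DYRK1A. An unannotated transcript covers 56.8% of the gene and held 6 to 12 counts per library, fewer than the gene itself, and no level of the mRNA is read from so few reads. Rpl31 was the 1 cytosolic gene that fell, by 0.29 ± 0.09 on the log2 scale (adjusted p = 0.0285 in edgeR). Its values were 35.1, 36.2 and 39.0 CPM in si-NC and 27.9, 34.0 and 28.3 CPM in si-DYRK1A, without overlap. At a mean of 29.0 FPKM, Rpl31 lay far below the cytosolic median of 669 FPKM. Whether the table misses reads of this gene was not tested, and no level of the mRNA is read from it. Rpl31 is also covered by an unannotated transcript, which held 0 counts in every library. It has the longest run at its start among the sequences printed, 12 bases.

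Most of these calls rest on a few libraries. With each library left out in turn, Rps27l was called in 4 of 6 fits, Rpl31 in 3, Rpl19 and Rps29 in 2 each and Rpl11 in 1, that without si-NC 3. The number of cytosolic genes called higher ran from 2 (without si-NC 1, si-NC 2 or si-DYRK1A 2) through 3 (without si-DYRK1A 3) to 10 (without si-NC 3), and Rpl31 was lost without si-NC 3, si-DYRK1A 1 or si-DYRK1A 3. The share of all features called in each of these fits is not given here, so such counts are not read as a result about the members. An exact two-sided permutation test of single genes cannot go below 0.1 with 3 libraries against 3, and it gave 0.1 for each called member of either ribosome other than Rps29, with 0.2.

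**Figure D4:**
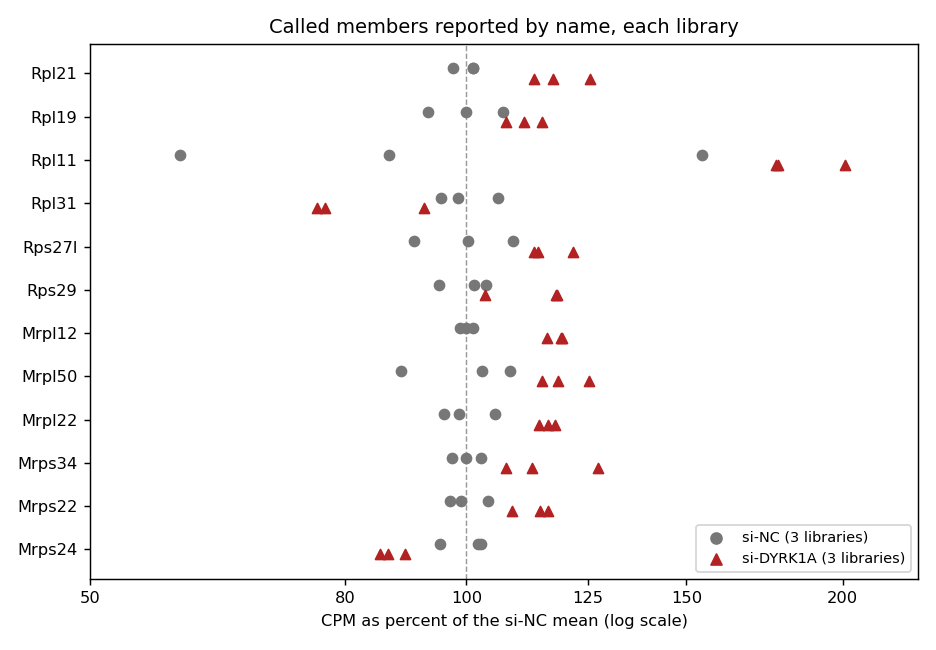
CPM of the called members reported by name in each library, as a percent of the si-NC mean on a log axis, with circles for si-NC and triangles for si-DYRK1A (3 libraries each). The groups do not overlap except in Rps29, Mrpl12 has the tightest groups, and Rpl11 spreads from 59.0% to 154% within si-NC.

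Apart from Rps27l, none of the tested paralogues described next, nor Rpsa, was called. Rpl3 forms part of the peptidyl transferase centre, and Rpl3l is its form in heart and skeletal muscle. Rpl3 had 26.8 ± 0.320 CPM in si-NC and 25.2 ± 1.86 CPM in si-DYRK1A (log2 fold change -0.09 ± 0.09, adjusted p = 0.561 in edgeR). Rpl3l was near the limit of detection, with 4 to 19 counts per library and a log2 fold change of 0.58 ± 0.56 (95% interval -0.60 to 1.75, adjusted p = 0.552), too wide to give a direction. Rpl39 had 467, 364 and 551 CPM in si-NC and 585, 526 and 482 CPM in si-DYRK1A, with wide overlap, and its paralogue Rpl39l had 4.50 ± 0.666 and 5.89 ± 1.06 CPM. The log2 fold change of Rpl39l was 0.39 ± 0.20, and neither passed the test (adjusted p = 0.572 and 0.220 in edgeR). Rpl10l, a retrogene of Rpl10 best known from the testis, held 58.4 ± 1.77 and 60.7 ± 3.94 CPM (0.06 ± 0.07, adjusted p = 0.647) where Rpl10 itself was listed at 0. Rpl7 had 1769 ± 141 and 1914 ± 21.0 CPM (0.11 ± 0.05, adjusted p = 0.123 in edgeR).

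Rps4x is listed under 2 identifiers, as a gene on X with 13 to 31 counts per library and as a gene on chromosome 4 with 264 ± 29.0 CPM in si-NC and 259 ± 15.4 CPM in si-DYRK1A (log2 fold change -0.03 ± 0.08, adjusted p = 0.868 in edgeR). Rps4y2 had 50.9, 53.4 and 53.4 CPM in si-NC and 42.0, 48.6 and 49.0 CPM in si-DYRK1A, without overlap but short of the threshold (-0.18 ± 0.07, adjusted p = 0.117). The Rps4x gene on chromosome 4 and Rps4y2 also span only their listed lengths, 972 and 934 bases, without an intron. Rpsa, a small-subunit protein that also serves as a laminin receptor, had 2588 ± 168 and 2498 ± 98.2 CPM (-0.05 ± 0.05, adjusted p = 0.521 in edgeR).

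The mitochondrial genes were asked the same question. Of 49 tested, 5 rose (Mrpl12, Mrpl50, Mrpl22, Mrps34 and Mrps22) and 1 fell (Mrps24), or 10.2% and 2.04%, again beside 8.03% and 7.19% of all features. Among features averaging at least 4 on the log2 CPM scale, 5 of 43 mitochondrial genes rose (11.6%) and 1 fell (2.33%), beside 13.0% and 12.1%. The share called higher is again near the background. The direction was more uneven: 41 of 49 log2 fold changes (83.7%) were above 0, beside 50.4% of all features, with a median of 0.11, and si-DYRK1A lay above si-NC without overlap in 19 of 49 genes (38.8%), beside 16.2% of all features. It lay below without overlap in 1 gene (2.04%), beside 15.3%. Among features averaging at least 4 on the log2 CPM scale, 18 of 43 mitochondrial genes lay above without overlap (41.9%), beside 21.4%. There 1 gene (2.33%) lay below, beside 20.3%. DESeq2 called 2 higher (Mrpl12 and Mrpl50) and 0 lower. Large and small subunits both stood above the median of all features in edgeR, with medians of 0.13 (30 tested, 3 higher, none lower) and 0.11 (19 tested, 2 higher, 1 lower). Changes were small, with 43 of 49 under 0.25 in size, and the 95% interval lay within ±0.5 for the same number of genes.

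Mrpl12 binds the mitochondrial RNA polymerase in addition to its place in the stalk of the large subunit. It had 186, 184 and 188 CPM in si-NC and 216, 222 and 222 CPM in si-DYRK1A, so the groups were tight and far apart, at 0.24 ± 0.04 on the log2 scale (adjusted p = 0.000559 in edgeR). It was called with any library left out and in all 15 other settings tried. Mrpl50, a protein found only in mitochondrial ribosomes, had 61.7, 53.2 and 65.0 CPM in si-NC and 75.1, 71.0 and 69.0 CPM in si-DYRK1A (0.26 ± 0.07, adjusted p = 0.0167 in edgeR). Mrpl22, which lines the exit tunnel, had 53.3, 54.8 and 58.5 CPM in si-NC and 63.5, 64.5 and 65.4 CPM in si-DYRK1A (0.21 ± 0.06, adjusted p = 0.0261 in edgeR). In all 3 large-subunit genes every si-DYRK1A library was above every si-NC library.

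On the small subunit, Mrps34 had 73.1, 75.0 and 77.1 CPM in si-NC and 80.7, 95.7 and 84.7 CPM in si-DYRK1A, with replicate 2 of si-DYRK1A well above the rest (0.21 ± 0.06, adjusted p = 0.0256 in edgeR). Mrps22 had 78.3, 73.1 and 74.7 CPM in si-NC and 82.0, 86.3 and 87.6 CPM in si-DYRK1A (0.18 ± 0.06, adjusted p = 0.0369 in edgeR, and 0.0594 with the replicate block). Variants of either gene are known from patients with failing mitochondrial translation. Mrps24 went the other way, from 83.1, 89.2 and 89.6 CPM in si-NC to 74.5, 75.6 and 78.0 CPM in si-DYRK1A, and fell by 0.20 ± 0.06 on the log2 scale (adjusted p = 0.0183 in edgeR). Its groups did not overlap either.

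With each library left out, Mrpl50 and Mrps24 were called in 3 of 6 fits and Mrpl22, Mrps22 and Mrps34 in 2. The number of mitochondrial genes called higher ran from 1, without si-DYRK1A 2, to 5, with 2 without si-DYRK1A 3 and 3 without si-NC 2, and Mrps24 was lost without si-NC 3, si-DYRK1A 1 or si-DYRK1A 2. Here too the share of all features called in each fit is not given. The median stayed between 0.09 and 0.14.

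Set side by side, the cytosolic median was 0.05 lower on the log2 scale than the mitochondrial median. The median level of each class on the log2 CPM scale was also taken in every library. Within groups this level had an SD of 0.10 for cytosolic and 0.04 for mitochondrial members, and of 0.09 for the difference between classes. These are spreads of levels in single libraries and do not give the error of the difference in median log2 fold change. The classes also differed in how well replicates agreed. Among members with a mean of at least 10 CPM, the coefficient of variation within groups had a median of 6.82% in 46 cytosolic genes and 5.10% in 43 mitochondrial genes, beside 6.02% in all features. It passed 15% in 10 of the 46 cytosolic genes (21.7%), in 0 of the 43 mitochondrial genes and in 5.23% of all features. The highest values were those of Rpl38 (48.3%), of the Rps27a gene on chromosome 5 (46.3%) and of Rpl31l4 (46.2%). Among the cytosolic genes tested, those with the run of pyrimidines at the start had a median log2 fold change of 0.07 (13 genes, 1 higher and 1 lower), and those without it 0.04 (22 genes, 2 higher).

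Reads of cytosolic genes could be divided among near-identical copies. Besides the members, 198 annotated features outside the name rule were described as the same protein, for 59 of the 90 cytosolic symbols, and 40 of them had a mean of at least 100 counts. They held 0.331%, 0.248% and 0.283% of counts in si-NC and 0.289%, 0.282% and 0.249% in si-DYRK1A, with si-NC 1 apart from the rest. Of the 40, 29 were highest in si-NC 1 (72.5%), whereas 17.5% of the cytosolic members tested and 17.5% of all features were. Such a copy, LOC102555453, named after its values were seen and described as like L12, held 2823 to 4361 counts per library, where Rpl12 itself was under 10.

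Rps27a makes a small-subunit protein fused to ubiquitin and has 2 genes among the members. It was chosen after its values were seen. The gene on chromosome 14 had 1127, 807 and 657 CPM in si-NC and 1312, 1283 and 1288 CPM in si-DYRK1A. The gene on chromosome 5 had 298, 403 and 945 CPM in si-NC and 297, 269 and 214 CPM in si-DYRK1A. Within si-NC, the library with the least at one locus had the most at the other, and the log2 fold changes were opposite, at 0.58 ± 0.22 and -1.08 ± 0.53, with neither gene called (adjusted p = 0.199 and 0.299 in edgeR). Summed with its 2 annotated copies, Rps27a had 1425, 1210 and 1603 CPM in si-NC and 1609, 1553 and 1502 CPM in si-DYRK1A, which overlapped, at 0.14 ± 0.11 (adjusted p = 0.509 in edgeR).

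The loci of Rpl21 showed no such exchange within si-NC, where si-NC 2 was lowest on chromosomes 12 and 13 and on X. Within si-DYRK1A, si-DYRK1A 2 had the least on chromosome 12 and the most on X, and si-DYRK1A 1 the reverse. Beside the called gene on chromosome 13, the gene on chromosome 12 had 882, 628 and 848 CPM in si-NC and 899, 474 and 764 CPM in si-DYRK1A (-0.14 ± 0.30), the gene on X had 295, 179 and 283 CPM and then 223, 281 and 252 CPM (0.00 ± 0.24), and the gene on chromosome 3 stayed under 7 CPM. None of these 3 was called (adjusted p = 0.828, 0.999 and 0.212 in edgeR). The sum over all its genes and its copy was 1624, 1240 and 1578 CPM in si-NC and 1675, 1255 and 1532 CPM in si-DYRK1A. The groups overlapped throughout, and the sum was not called (0.01 ± 0.17, adjusted p = 0.988 in edgeR), so the call of the single gene did not carry over to the protein's summed reads.

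**Figure D5:**
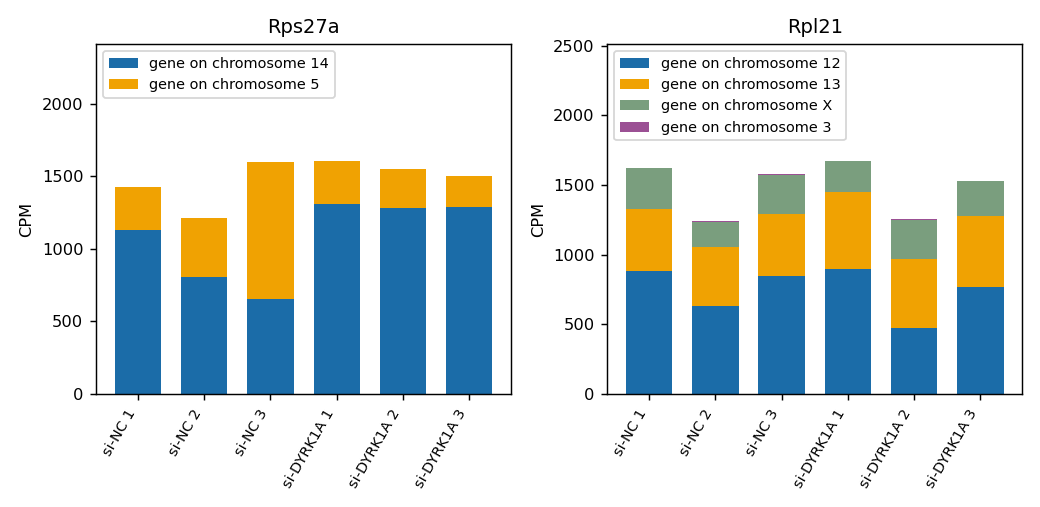
CPM of the genes named Rps27a (left) and Rpl21 (right) in each library, stacked by the chromosome of the gene. The parts of Rps27a shift between both loci within si-NC, from 1127 and 298 CPM in si-NC 1 to 657 and 945 CPM in si-NC 3, while the stacks differ less.

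All genes of a cytosolic symbol and its annotated copies were then summed, a setting chosen after seeing the data. Paralogues with a symbol of their own, such as Rpl31l4, were kept as separate sums. In all, 69 of 90 such sums could be tested. Of these, 5 rose (L11, L19, S27-like and S29 among them) and 1 fell (L31), beside 8.07% and 7.28% of all features in that fit, with a median log2 fold change of 0.04. L11 and S27-like have 0 copies, so their sums are the single genes again. That of L11 holds only the very low counts of Rpl11. The fall of L31 was larger there, from 52.6, 47.8 and 46.2 CPM in si-NC to 37.6, 42.9 and 34.7 CPM in si-DYRK1A, at -0.35 ± 0.08 (adjusted p = 0.00551 in edgeR), and it was called in 5 of 6 fits that left out a library. The exception was the fit without si-DYRK1A 3 (adjusted p = 0.0516 in edgeR).

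Genes that build ribosomes were tested alongside. For these and the lists that follow, shares of all features stand beside the counts. Among features averaging at least 4 on the log2 CPM scale, 13.0% were called higher and 12.1% lower. The lists were not limited to that level. Of 50 ribosome assembly genes, 31 were tested, 7 rose (22.6%, beside 8.03% of all features) and none fell (beside 7.19%), with a median log2 fold change of 0.07, 27 values above 0 (87.1%, beside 50.4%) and a summed level of 3739 to 3823 CPM in si-NC and 4035 to 4108 CPM in si-DYRK1A. Rrs1, a regulator of large-subunit assembly, had 58.0, 60.2 and 57.8 CPM in si-NC and 67.2, 76.8 and 75.7 CPM in si-DYRK1A, with no overlap (0.32 ± 0.07, adjusted p = 0.00166 in edgeR). Utp14a, of the small-subunit processome, and Ftsj3, an rRNA methyltransferase, rose by 0.25 ± 0.06 and 0.18 ± 0.05 on the log2 scale (adjusted p = 0.0101 and 0.0148 in edgeR). Of 10 tested genes of RNA polymerase I, which transcribes rRNA, its subunits Polr1b and Polr1c rose (0.30 ± 0.07 and 0.20 ± 0.06, adjusted p = 0.00634 and 0.0180 in edgeR), none fell, and the median was -0.03. These 2 of 10 stand beside 8.03% of all features called higher and 7.19% called lower.

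Of 24 translation factors tested, 1 was higher and 1 lower (4.17% each, beside 8.03% and 7.19% of all features), with a median of 0.03. Eif2s3, a subunit of the factor that brings the initiator tRNA, rose by 0.17 ± 0.04 (adjusted p = 0.00482 in edgeR), and Pabpc1, the cytosolic poly(A)-binding protein, fell by 0.18 ± 0.04 (adjusted p = 0.00524 in edgeR). Of 11 tested regulators in the mTORC1 and Myc list, 3 rose (27.3%, beside 8.03% of all features) and none fell (beside 7.19%): Mycn, a Myc family activator (0.36 ± 0.08), and Mxd4 and Mxd1, which compete with Myc for Max (0.27 ± 0.04 and 0.28 ± 0.07), with adjusted p = 0.00244, 0.000173 and 0.00797 in edgeR. These members have opposite known actions on Myc targets.

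Genes for mitochondrial translation and assembly of the mitochondrial ribosome gave 3 higher (11.5%) and 1 lower (3.85%) of 26 tested, beside 8.03% and 7.19% of all features, a median of 0.12 and 22 values above 0 (84.6%, beside 50.4%), with a summed level of 1630 to 1675 CPM in si-NC and 1761 to 1773 CPM in si-DYRK1A. Gfm2, a factor that recycles mitochondrial ribosomes, had 65.6, 71.7 and 65.0 CPM in si-NC and 85.6, 80.8 and 80.9 CPM in si-DYRK1A, without overlap (0.29 ± 0.06, adjusted p = 0.00197 in edgeR). Noa1, an assembly GTPase, and Polrmt, the mitochondrial RNA polymerase to which Mrpl12 binds, rose by 0.21 ± 0.07 and 0.23 ± 0.08 (adjusted p = 0.0462 and 0.0469 in edgeR). Mrrf, the partner of Gfm2 in recycling, fell by 0.24 ± 0.08 (adjusted p = 0.0394 in edgeR). Of the mitochondrial ribosomal proteins outside the name rule, Dap3, Ptcd3 and Gadd45gip1 were tested and none was called (median 0.18), with Dap3 and Ptcd3 at 3.12 CPM or less. The mitochondrial rRNAs were not matched by symbol and are not analysed here.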

How the data were processed

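The authors aligned paired-end reads with HISAT2 to Rnor_6.0 (the submitters' processing notes instead name Bowtie 0.12.2 and mm8, while the identifiers are rat Ensembl genes) and deposited raw counts and FPKM per feature, unannotated transcripts included. Neither the counter nor its annotation release and strand setting is given in the sources used here, and Rnor_6.0 and GRCr8 coordinates were not mixed. The sample labels gave both groups and the replicates.

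Counts of all features entered a quasi-likelihood fit in edgeR 4.0.16 (R 4.3.3) (TMM, robust, filterByExpr with a minimum count of 10 and a total of 15), with two-sided p-values adjusted by Benjamini-Hochberg over 15513 features at a threshold of 0.05. SE is the unshrunk log2 fold change over the root of F. FPKM served for levels between genes. Alternatives used DESeq2 1.42.0, limma 3.58.1, other scalings, filters, single libraries left out, a replicate block, length correction and summed features. Scripts were tested on simulated data. Depth, 10325074 to 11921772 counts per library, leaves genes under 10 counts untested.

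Members and gene lists were chosen with earlier results of these data known. Genes named were, per class, up to 4 called higher and 4 called lower with the smallest p, the 2 with the highest FPKM, paralogue pairs, Rplp0, Rplp1, Rplp2, Rpsa and members under 10 counts, and up to 3 called in each direction per other list. Others were named after their values were seen. A few members that the rule takes are not reported by name. Sequences are from RefSeq (GRCr8).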

Additional observations from a re-analysis of the deposited data

How the results depend on the processing

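The median log2 fold change of both classes kept its sign in every setting tried, and no named gene reversed. With no library left out, the median ran from 0.03 to 0.06 (cytosolic) and from 0.08 to 0.12 (mitochondrial). Counts of calls moved. In this section the share of all features called in the same fit is given for DESeq2 only, so other counts are not read as a result about the members. With DESeq2, 5 cytosolic genes were called higher and 0 lower, and 2 mitochondrial genes higher and 0 lower, beside 6.81% and 6.22% of all features with an adjusted p there. With library size as the only scaling, 3 of each class were called higher and 1 of each lower. With limma on log2(FPKM + 1) or log2(FPKM + 0.1), filtered at 0.5 FPKM in 3 libraries, 1 cytosolic and 2 mitochondrial genes were higher, with 0 and 1 lower. Without that filter the counts were 0 and 1 higher and 0 and 0 lower. At an adjusted p below 0.01 in edgeR, Rpl21 and Mrpl12, 1 of each class, were left higher and 0 lower.

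With each library left out, cytosolic calls ran from 2 to 10 higher and 0 to 1 lower, and mitochondrial calls from 1 to 5 higher and 0 to 1 lower. Cytosolic medians ran from 0.01 to 0.10, mitochondrial medians from 0.09 to 0.14, and their difference from -0.08 to -0.03. The cause of these shifts was not tested, apart from the loss of a library itself.

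Replicate numbers did not pair the libraries: same-numbered libraries had correlations of deviations of 0.06, -0.03 and 0.00. With the replicate block, 6 cytosolic genes were higher and 1 lower and 5 mitochondrial genes higher and 1 lower. Mrps22 was lost there (adjusted p = 0.0594) and Mrpl38 gained (adjusted p = 0.0416). With copies summed, the block and DESeq2 each gave 2 sums lower, L31 and L10a, where the fit without the block gave 1, L31. RLE and upper-quartile scaling, limma-voom, both filters on low counts, annotated genes only, removal of the length trend with or without the block, and added covering transcripts kept every count within 1.5 times.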

Other observations

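The annotated copies of cytosolic ribosomal protein genes outside the name rule showed their own spread. Of the 40 with a mean of at least 100 counts, 1 was called, LOC100362751, described as like P2, a stalk protein whose own gene Rplp2 was listed at 0. It had 48.6, 40.5 and 45.3 CPM in si-NC and 38.4, 38.7 and 35.3 CPM in si-DYRK1A, without overlap, and fell by 0.26 ± 0.08 on the log2 scale (adjusted p = 0.0339 in edgeR). LOC100363537, a pseudogene of L10a, had 51.9, 64.1 and 50.6 CPM in si-NC and 37.6, 43.9 and 29.3 CPM in si-DYRK1A, also without overlap, and was not called in edgeR (-0.59 ± 0.17, adjusted p = 0.0795). The call depends on the fit: summed with the other genes of L10a, which add almost no counts, the adjusted p was 0.0749 in edgeR, 4.28e-06 with the replicate block and 0.000149 in DESeq2, and from 0.00686 to 0.221 in edgeR with each library left out, called without si-DYRK1A 2 (0.00686) and without si-DYRK1A 3 (0.0127). Both were named after their values were seen.

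The limits are those of the table. It does not hold a usable value for 71 of the members, reads of near-identical copies could be divided among them, which was not tested, and strand is not stated, so reads of overlapping genes on opposite strands cannot be told apart. With 3 libraries a group, the median 95% interval of a log2 fold change was 0.43 wide for cytosolic and 0.28 wide for mitochondrial genes. The labelled knockdown could not be checked in the RNA.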
